A study of Mus musculus with 6 samples.

Results

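The colony-stimulating factors and their receptors were followed through lipopolysaccharide (LPS) activation of cultured enteric glial cells (EGCs), which support the neurons within the intestinal wall. The 8 members were taken by gene symbol: the ligand genes Csf1, Csf2, Csf3 and Il34, and the receptor genes Csf1r, Csf2ra, Csf2rb and Csf3r. Each symbol matched 1 of 46603 gene identifiers in the count files, and all 8 passed the filter on low counts. Csf2 and Csf3 passed it only through the LPS libraries, since every control held 3 counts or fewer of each. The rule reads gene symbols alone. The study was concerned with how EGCs act on monocytes and macrophages (Mφs).

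Poly(A) RNA was sequenced from 3 untreated control cultures and 3 cultures exposed to LPS, a component of the bacterial outer membrane, at 100 ng/ml for 12 h. All 6 came from C57BL/6J mice. The cells were grown for a week as neurospheres, floating clusters of neural progenitors, from digested intestines of embryos at day 14.5, in medium with EGF, FGF and B27, and were then plated in medium with serum. No cell type was sorted, and the labels do not say whether the numbered replicates came from separate preparations, so p-values measure the spread between these libraries, which may be technical.

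Colony-stimulating factors are secreted proteins named for the blood cell colonies they support in culture. CSF1, also called M-CSF, and IL-34 share one receptor, the tyrosine kinase CSF1R, which keeps Mφs alive and drives monocytes to become Mφs. CSF2, or GM-CSF, binds a specific alpha chain, CSF2RA, and signals through the beta chain CSF2RB, which the IL-3 and IL-5 receptors also use. CSF3, or G-CSF, binds CSF3R and is best known for raising the output of neutrophils. In the muscle layer of the gut, CSF1 is known as a factor on which resident Mφs depend.

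Totals ran from 18775316 to 23664312 counts per library, and the floor of 3 counts corresponded to 0.124 to 0.167 CPM (counts per 1e6 of library size, corrected for composition). The glial gene Sox10 was read at 73.8 to 101 CPM, whereas Gfap lay between 2.23 and 7.22 CPM. Markers of other cells were also present. The 5 mesenchymal markers summed to 11544 to 12224 CPM, against 264 to 377 CPM for the 7 glial markers. Some of these markers moved with LPS: all 5 smooth muscle markers fell (median log2 fold change -1.86), as did Kit, a marker of interstitial cells of Cajal (-2.12, adjusted p = 0.0473), and the glial gene S100b (-1.91, adjusted p = 0.0238), whereas glial Fabp7 rose (1.29, adjusted p = 0.0122). The part of these in the members' values was not tested. The 12 Mφ markers summed to 4029.8, 5195 and 12137 CPM in the numbered controls and to 3937, 5099.6 and 19437 CPM in LPS libraries 1, 2 and 3. All 12 were highest in the library numbered 3 within each group, so the replicate 3 libraries stand apart. They also held less of the 5 neuronal markers, with 237 against 388 to 393 CPM in controls and 250.4 against 362 to 379.5 CPM with LPS. The same was true of the interstitial cell of Cajal markers, with 34.9 against 152 to 160.0 CPM and 18.0 against 39.4 to 46.2 CPM. The fold changes of the members are given with and without the replicate 3 libraries. Over the 15226 genes tested the log2 fold change had a median of -0.02, and it moved to -0.12 with upper-quartile factors and to -0.18 with library size alone. The share of calls that were higher in LPS moved with it, from 57.5% to 39.8% and 32.4%.

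Of the 4 ligand genes 3 rose with LPS and none of the 4 receptor genes passed the test with group as the single term. With the replicate number as a block Csf2ra, Csf2rb and Csf3r passed, and DESeq2 called Csf3r. Csf2 and Csf3 went from the detection floor to 16.9 and 32.1 CPM on average, Csf1 rose 3.80-fold from an already high level, and the Il34 values with LPS lay within the control range. In the edgeR quasi-likelihood test 3 of 8 members were called higher at an adjusted p-value under 0.05 and 0 lower, where 9.09% of all genes tested were called higher and 6.71% lower. At an unadjusted p under 0.05 the counts were 4 higher and 0 lower, beside 16.1% and 16% of all genes. DESeq2 called 4 higher and 0 lower after adjustment, beside 13.7% and 11% of all genes. The LPS libraries lay above all control libraries for 4 of 8 members (Csf1, Csf2, Csf3 and Csf3r), beside 19.3% of all genes above and 19.4% below.

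**Figure D1:**
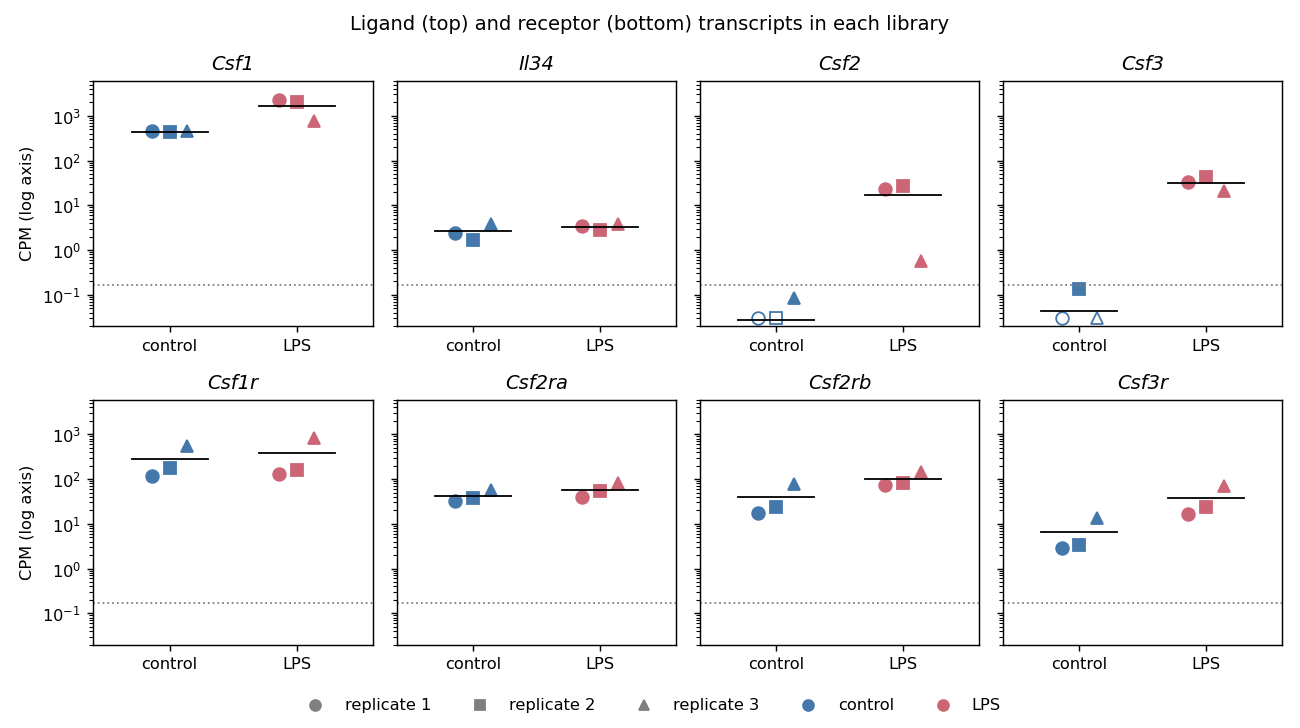
CPM of each member on a log axis, ligands in the top row and receptors in the bottom row, with 1 point per library and a line at the group mean. The dotted line marks the highest floor of 3 counts (0.167 CPM), and open symbols at the axis stand for 0 counts. Csf2 and Csf3 rise from the floor with LPS, and the replicate 3 libraries (triangles) are lowest of the LPS libraries for these ligands and Csf1 and highest for every receptor.

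Csf1 (ENSMUSG00000014599, chr3:107741048-107760469, minus strand, GRCm38), which encodes the growth factor of the monocyte and Mφ lineage, was abundant before treatment. Control replicates 1, 2 and 3 held 450.5, 425 and 456 CPM (444 ± 16.6, SD, n = 3), and LPS replicates 1, 2 and 3 held 2266, 2025 and 760.3 CPM (1684 ± 809). The controls lay close together and every LPS library was above them, but LPS replicate 3 rose far less than the other LPS libraries. The fitted log2 fold change was 1.92 (SE 0.40, 95% interval 0.93 to 2.92, edgeR adjusted p = 0.0304). Within replicate numbers 1, 2 and 3 the LPS library was 5.03-fold, 4.77-fold and 1.67-fold above its control. Leaving out LPS replicate 3 alone kept the call, whereas leaving out any other library lost it, with adjusted p between 0.0674 and 0.130. Without both replicate 3 libraries the log2 fold change was 2.32 (adjusted p = 2.83e-06). LPS replicate 3 is the library with the highest Mφ marker sum and the lowest sum of interstitial cell of Cajal markers, and the part of these in its lower Csf1 level was not tested. In bulk RNA, fewer cells of a type and less RNA per cell cannot be told apart.

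Csf2 (ENSMUSG00000018916, chr11:54247271-54249667, minus strand), the gene of GM-CSF, was at or below the floor in every control, with 0, 0 and 2 counts. LPS replicates 1, 2 and 3 had 469, 486 and 11 counts, or 23.2, 27.1 and 0.576 CPM. All 3 LPS libraries were above the controls, yet the third held only a small part of the transcript seen in the others, whose mean was 43.6 times higher. Against 3 counts in the control library where they weigh most, the LPS libraries were at least 175-fold, 204-fold and 4.34-fold higher, and their mean at least 128-fold. The test gave an adjusted p of 0.0314 at a fitted log2 fold change of 8.95, and of 1.16e-05 at 12.06 without both replicate 3 libraries, fitted values that depend on the prior count and bound nothing. As for Csf1, leaving out any library other than LPS replicate 3 lost the call (adjusted p between 0.083 and 0.136). A non-coding gene on the opposite strand, Gm12223, overlaps 12.0% of the exon bases of Csf2, so some of its reads are uncertain where strand was not used in counting.

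Csf3 (ENSMUSG00000038067, chr11:98701263-98703629, plus strand), the gene of G-CSF, rose in all 3 LPS libraries. The controls had 0, 3 and 0 counts, and LPS replicates 1, 2 and 3 had 657, 778 and 389 counts, or 32.5, 43.4 and 20.4 CPM (32.1 ± 11.5). Every LPS library was therefore far above every control, and the spread among LPS libraries was narrower than for Csf2. The LPS libraries were at least 244-fold, 326-fold and 153-fold above the same limit of 3 counts, and their mean at least 241-fold. Its adjusted p was 0.00159 at a fitted log2 fold change of 9.37, and the call held under all 13 alternatives that gave a value, with adjusted p up to 0.0168. Without both replicate 3 libraries it was 1.22e-05 at 9.08. No exon base of Csf3 or Csf1 lies in another annotated gene.

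Il34 (ENSMUSG00000031750, chr8:110741829-110805924, minus strand), which encodes the second ligand of CSF1R, was low in all libraries. Control replicates 1, 2 and 3 held 2.46, 1.68 and 3.88 CPM (2.67 ± 1.12), and LPS replicates 1, 2 and 3 held 3.36, 2.79 and 3.82 CPM (3.32 ± 0.518). The groups overlapped, and replicate 3 was the highest library in both. The log2 fold change was 0.31 (SE 0.34, 95% interval -0.53 to 1.15, adjusted p = 0.58), and 0.59 without both replicate 3 libraries (adjusted p = 0.132). Antisense genes cover 4.95% of its exon bases. Per kilobase of exon, the log2 ratio of Csf1 to Il34 was 6.03, 6.47 and 5.41 in the controls, by number, and 7.93, 8.03 and 6.17 in LPS replicates 1, 2 and 3. The ratio was 1.40 higher on the log2 scale with LPS (exact permutation test, two-sided, p = 0.2, where 0.1 is the smallest p that 3 against 3 allows).

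The 3 induced ligand transcripts carry AU-rich words in their 3′ untranslated regions (UTRs), which are known to mark short-lived cytokine messages and which mRNA decay proteins recognize. The windows of 30 bases richest in the word ATTTA are shown 5′ to 3′ with that word in capitals. The word is not particular to the induced ligands, since Il34 and the receptor gene Csf1r also hold it. The windows come from the longest 3′ UTR of each gene in GENCODE M21 (GRCm38).
Csf1, chr3:107741109-107741138, minus strand: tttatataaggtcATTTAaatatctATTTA
Csf2, chr11:54247329-54247358, minus strand: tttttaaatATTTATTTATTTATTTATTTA
Csf3, chr11:98702984-98703013, plus strand: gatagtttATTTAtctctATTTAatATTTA
Csf2 held 9 such words in 317 bases, and 0 of 2138 genes with a 3′ UTR within 25% of that length held as many. It also held the longer word TTATTTATT 4 times, which 2.15% of those genes hold at all, whereas Csf1 and Csf3 held it 0 times. Csf3 held 6 words in 669 bases, and 1.65% of 2855 genes of similar length had at least as many. Csf1 held 4 in 2111 bases, and 48.0% of genes of similar length had at least as many. Il34 held 1 and Csf1r held 3, and 57.0% and 51.2% of genes of similar length had at least as many. Csf2ra, Csf2rb and Csf3r held 0. These are matches of letters on the transcript strand and describe the sequences alone.

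Among the receptor genes the replicate number moved the level more than LPS did for Csf1r, whereas Csf3r was higher in every LPS library than in any control. All 4 fitted fold changes were positive and none passed the test across all genes. With the replicate number as a block, a fit that compares each LPS library with the control of the same number, 3 of the 4 receptors were called higher, and with the ligands 6 of 8 members. That fit called 15.4% of all genes higher and 14.9% lower. Without both replicate 3 libraries 5 of 8 members were called higher, beside 22.6% of all genes higher and 20.4% lower.

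**Figure D2:**
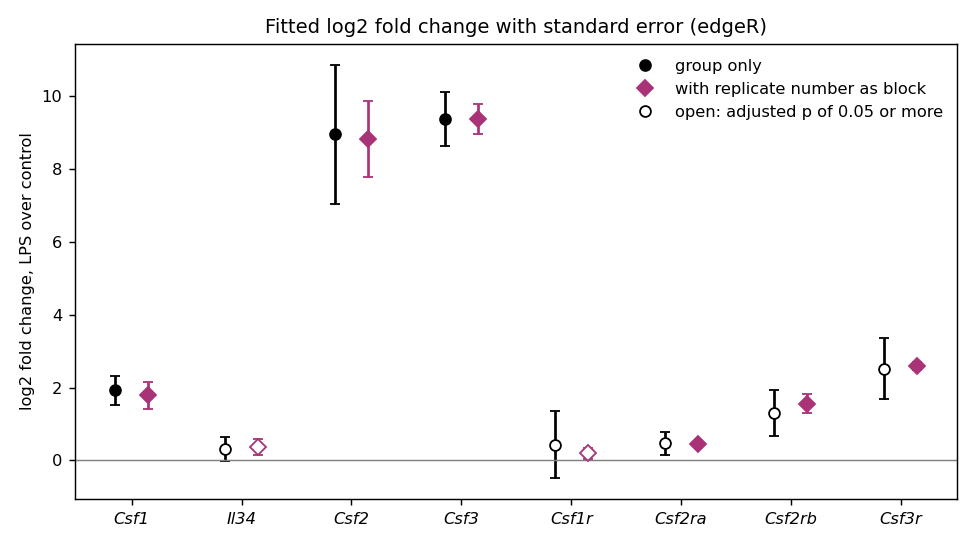
Fitted log2 fold change of each member, LPS over control, with bars of 1 SE, from the edgeR fit with group alone (black) and with the replicate number as a block (magenta). Open symbols did not pass an adjusted p of 0.05. The bars of Csf2rb and Csf3r shrink under the block, from 0.63 to 0.27 and from 0.84 to 0.11, while the estimates go from 1.30 to 1.56 and from 2.52 to 2.58.

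Csf1r (ENSMUSG00000024621, chromosome 18, plus strand), the receptor of CSF1 and IL-34 and a defining gene of Mφs, gave 118, 174 and 551 CPM in control replicates 1, 2 and 3 (281 ± 236). In LPS replicates 1, 2 and 3 it gave 127, 161 and 844 CPM (377 ± 405). The groups overlapped, and replicate 3 stood above the mean of the other libraries by 3.78-fold in the controls and 5.86-fold with LPS. The log2 fold change was 0.43 (SE 0.92, 95% interval -1.84 to 2.69, adjusted p = 0.795). It was 0.20 with the replicate block (adjusted p = 0.355), 0.00 without both replicate 3 libraries and turned to -0.97 without LPS replicate 3 alone (adjusted p = 0.373). Exons of Hmgxb3 on the other strand cover 15.12% of its exon bases with those of a microRNA gene, which leaves part of the count uncertain.

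Csf2ra (ENSMUSG00000059326, chr19:61223957-61228429, minus strand), the alpha chain that gives the GM-CSF receptor its specificity, had the smallest SE of the receptor genes. Control replicates 1, 2 and 3 held 32.0, 37.5 and 56.0 CPM (41.8 ± 12.6), and LPS replicates 1, 2 and 3 held 39.1, 55.2 and 79.8 CPM (58.0 ± 20.5). The groups overlapped, but each LPS library was above the control of its own number, by 1.22-fold, 1.47-fold and 1.42-fold. The log2 fold change was 0.47 (SE 0.32, 95% interval -0.32 to 1.26, adjusted p = 0.366), and with the replicate block it was 0.45 (SE 0.08, adjusted p = 0.0182). Without both replicate 3 libraries it was 0.46 (adjusted p = 0.0667).

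Csf2rb (ENSMUSG00000071713, chr15:78325752-78353847, plus strand), the shared signaling chain of the GM-CSF, IL-3 and IL-5 receptors, held 17.1, 23.3 and 79.1 CPM in control replicates 1, 2 and 3 (39.8 ± 34.1). LPS replicates 1, 2 and 3 held 73.5, 80.1 and 141 CPM (98.2 ± 37.3). A single library made the groups overlap, since control replicate 3 lay above LPS replicate 1. By replicate number the LPS library was 4.30-fold, 3.43-fold and 1.78-fold higher. The log2 fold change was 1.30 (SE 0.63, 95% interval -0.25 to 2.85, adjusted p = 0.218), 1.56 with the replicate block (SE 0.27, adjusted p = 0.0184), 2.30 without control replicate 3 (adjusted p = 0.0217) and 1.95 without both replicate 3 libraries (adjusted p = 9.57e-05).

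Csf2rb has a near copy beside it, Csf2rb2 (ENSMUSG00000071714, chr15:78282507-78305721), which encodes a beta chain particular to IL-3 in the mouse. Of the stretches of 50 bases in Csf2rb transcripts, 12.3% also occur in Csf2rb2, so reads from these could have been lost or misplaced. Csf2rb2 gave 28.0, 32.8 and 96.9 CPM in the controls, by number, and 30.0, 30.4 and 107 CPM in LPS replicates 1, 2 and 3. Its log2 fold change was 0.09 (SE 0.71, adjusted p = 0.949), and 0.05 with the replicate block (adjusted p = 0.67). Within each replicate number its LPS and control values lay close together, and the difference between its fold change and that of Csf2rb was not tested.

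Csf3r (ENSMUSG00000028859, chr4:126024550-126044440, plus strand), the G-CSF receptor, was the receptor gene with the largest fitted change. Control replicates 1, 2 and 3 held 2.88, 3.32 and 13.2 CPM (6.46 ± 5.83), and LPS replicates 1, 2 and 3 held 16.4, 23.7 and 71.4 CPM (37.2 ± 29.9). The groups did not overlap, and by replicate number the LPS library was 5.68-fold, 7.15-fold and 5.42-fold higher. The log2 fold change was 2.52 (SE 0.84, 95% interval 0.46 to 4.58) with an unadjusted p of 0.0242 and an adjusted p of 0.0986. It passed with the replicate block (2.58, SE 0.11, adjusted p = 0.000719), with DESeq2 (2.53, adjusted p = 0.00659), without control replicate 3 (3.60, adjusted p = 0.0473) and without both replicate 3 libraries (2.71, adjusted p = 0.000166). Of its stretches of 50 bases, 10.7% occur in another gene, mostly in AC105061.2.

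All 4 receptor genes were highest in the replicate 3 libraries of their group, where the Mφ markers were also highest. Among these markers Ptprc, the pan-leukocyte phosphatase CD45, gave 47.8, 69.0 and 141 CPM in the controls, by number, and 69.8, 97.5 and 328 CPM in LPS replicates 1, 2 and 3 (log2 fold change 0.94, adjusted p = 0.402, and 0.0318 with the replicate block). The lysozyme gene Lyz2 ranged from 2888 to 7978 CPM in controls and from 2385 to 11479.8 CPM with LPS. Adgre1, which encodes the Mφ protein F4/80, was the 1 of 12 markers called higher (log2 fold change 2.78, adjusted p = 0.0452), with 0 called lower and a median of 0.10. Of all genes 9.09% were called higher and 6.71% lower. The replicate block called 4 markers higher and 3 lower, beside 15.4% and 14.9% of all genes. Without both replicate 3 libraries 3 were called higher and 6 lower, with a median of -0.48, beside 22.6% and 20.4% of all genes. Mrc1, the gene of the mannose receptor CD206, gave 197, 331 and 752 CPM in controls and 9.29, 10.4 and 131 CPM with LPS (log2 fold change -3.08, adjusted p = 0.145). It passed with the replicate block (-3.92, adjusted p = 0.0124) and without both replicate 3 libraries (-4.73, adjusted p = 4.49e-05). The fitted changes of Adgre1 and Mrc1 thus had opposite signs.

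Receptor levels were also set against the Mφ markers, as log2 CPM minus the mean log2 CPM of the 12 genes. On this scale Csf3r was -4.55, -4.95 and -4.33 in the controls, by number, and -1.71, -1.44 and -2.54 in LPS replicates 1, 2 and 3, a difference of 2.72 (exact permutation test, two-sided, p = 0.1, the smallest possible). Csf2rb went from -2.02, -2.17 and -1.76 to 0.45, 0.31 and -1.56, a difference of 1.72 (exact p = 0.1). Neither gene's groups overlapped on this scale, although for Csf2rb LPS replicate 3 lay close to the controls. Csf1r differed by 0.35 (exact p = 0.2) and Csf2ra by 0.60 (exact p = 0.5), with overlapping groups. Set against Ptprc alone, the differences of Csf1r and Csf2ra turned to -0.55 and -0.30, so their direction depends on the markers chosen. That of Csf2rb shrank to 0.81 (exact p = 0.2), so its groups then overlapped, and that of Csf3r to 1.81 (exact p = 0.1). The marker Adgre1 had a fitted log2 fold change of 2.78, above those of Csf3r (2.52) and Csf2rb (1.30), whereas that of Mrc1 was -3.08. The differences of Csf3r and Csf2rb therefore also depend on the markers chosen, and ratios to Adgre1 alone were not tested. Whether the receptor transcripts come from Mφs was not tested.

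**Figure D3:**
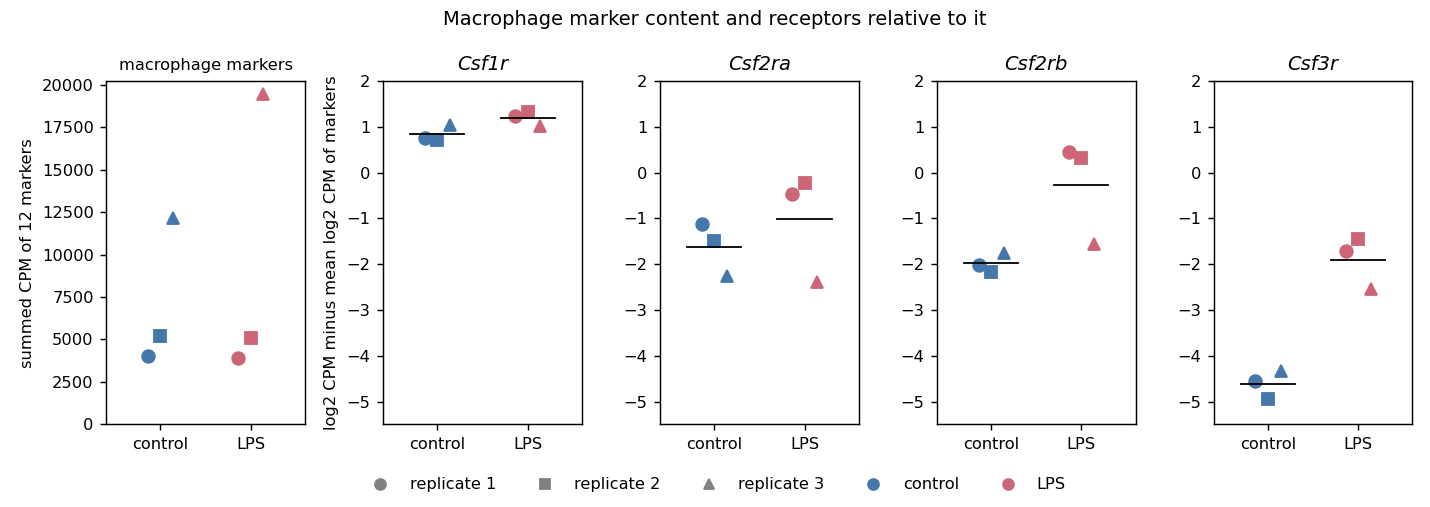
Summed CPM of the 12 Mφ markers in each library (left) and log2 CPM of each receptor minus the mean log2 CPM of those markers (right), with lines at group means. The marker sum is highest in the replicate 3 libraries (12137 and 19437 CPM), and Csf3r and Csf2rb lie higher in all 3 LPS libraries than in any control.

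For neutrophils, which depend on CSF3R, 7 of 9 markers had 3 counts or fewer in every library, among them S100a9, Ly6g, Elane and Cxcr2, and Retnlg had 0. The 2 markers above the filter were S100a8 (called higher, log2 fold change 4.87, adjusted p = 0.0205) and Camp (2.44, adjusted p = 0.0553, and 0.00803 with the replicate block). The summed level of all 9 was 1.78, 1.82 and 1.16 CPM in control replicates 1, 2 and 3 and 22.6, 21.6 and 7.90 CPM in LPS replicates 1, 2 and 3. In both groups this sum was lowest in replicate 3, where Csf3r was highest, and its part in the Csf3r values was not tested. Of the 4 dendritic cell markers Cd209a had 0 counts and Flt3 no more than 0.111 CPM. Zbtb46 fell from 10.4 to 10.6 CPM in controls to 6.42 to 7.59 CPM with LPS (log2 fold change -0.62, adjusted p = 0.0265). Itgax held 1.86 to 10.3 CPM in controls and 0.613 to 2.41 CPM with LPS (-2.03, adjusted p = 0.157, and 0.0107 with the replicate block). Of 6 T cell and mast cell markers 0 passed the filter and 4 were at 0 in all libraries.

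Promoter windows of 300 bases (250 before and 50 after the RefSeq start) were given for 4 of the 8 members, Csf1, Csf2, Csf2ra and Csf3r. They were searched on both strands for the NF-κB decamer consensus, the AP-1 word TGANTCA, the PU.1 core GAGGAA and the C/EBP word TTNNGNAA, where N is any base, and for the interferon-stimulated response element (ISRE). The windows of the induced ligand Csf1 and of the receptors are shown 5′ to 3′ on the gene's strand, from RefSeq on GRCm38.p6. Capitals mark the NF-κB match in Csf1 and the PU.1 cores in Csf2ra and Csf3r.
Csf1, chr3:107760420-107760719, minus strand: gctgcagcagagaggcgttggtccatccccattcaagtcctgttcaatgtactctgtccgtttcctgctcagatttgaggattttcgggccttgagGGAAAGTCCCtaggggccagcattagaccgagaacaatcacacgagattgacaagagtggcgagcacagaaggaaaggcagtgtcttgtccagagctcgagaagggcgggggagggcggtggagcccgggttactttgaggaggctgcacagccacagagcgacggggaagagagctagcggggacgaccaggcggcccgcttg
Csf2ra, chr19:61228369-61228668, minus strand: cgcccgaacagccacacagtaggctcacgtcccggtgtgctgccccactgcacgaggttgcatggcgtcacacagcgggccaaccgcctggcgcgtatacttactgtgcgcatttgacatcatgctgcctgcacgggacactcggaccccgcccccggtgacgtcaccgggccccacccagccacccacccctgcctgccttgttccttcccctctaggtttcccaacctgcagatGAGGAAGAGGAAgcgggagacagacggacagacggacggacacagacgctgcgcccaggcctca
Csf3r, chr4:126024409-126024708, plus strand: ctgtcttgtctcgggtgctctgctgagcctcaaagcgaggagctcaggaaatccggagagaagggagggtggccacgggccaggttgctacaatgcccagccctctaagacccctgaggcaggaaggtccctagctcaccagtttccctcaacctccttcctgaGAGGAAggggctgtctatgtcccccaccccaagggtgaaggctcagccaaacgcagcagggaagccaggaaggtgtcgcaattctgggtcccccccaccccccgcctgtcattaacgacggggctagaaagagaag
The single NF-κB match of Csf1 spans bases 97 to 106 of the window, and 4.51% of 32851 mouse promoters in the same table hold this consensus. Csf2ra holds adjoining PU.1 cores at bases 237 to 242 and 243 to 248, and Csf3r holds 1 at bases 165 to 170, a word found in 28.3% of promoters. A C/EBP word, present in 40.7% of promoters, occurs once each in Csf2 and Csf2ra. The Csf2, Csf2ra and Csf3r windows hold no NF-κB match, and none of the 4 windows holds the AP-1 word (7.81% of promoters) or the ISRE (3.44%). The GENCODE start of Csf2 lies 232 bases downstream of its RefSeq start, beyond the end of the window. The GENCODE start of Csf3r, at position 126024550, lies upstream of its RefSeq start, so by that start the PU.1 core is inside the transcribed part. A match is a run of letters and no evidence of binding.

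Levels between genes were compared per kilobase of exon (CPM per kb). In controls Csf1 came first at 84.0 ± 3.15, followed by Csf1r at 48.7 ± 40.8, Csf2ra at 14.6 ± 4.39, Csf2rb at 5.47 ± 4.69, Csf3r at 1.79 ± 1.61 and Il34 at 1.37 ± 0.57, with Csf2 and Csf3 at the floor. The ranges of Csf1 and Csf1r overlapped, because control replicate 3 held more Csf1r (95.4) than Csf1 (86.3). The ranges of Csf2rb and Csf3r, and of Csf3r and Il34, also overlapped, although within each library Csf2rb lay above Csf3r. The range of Csf2ra overlapped neither that of Csf1r above it nor that of Csf2rb below it. With LPS the order of the means became Csf1 (319 ± 153), Csf1r (65.4 ± 70.1), Csf3 (22.7 ± 8.14), Csf2 (21.2 ± 17.9), Csf2ra (20.2 ± 7.14), Csf2rb (13.5 ± 5.12), Csf3r (10.3 ± 8.28) and Il34 (1.70 ± 0.265). Every neighboring pair overlapped except Csf3r and Il34. Among all genes tested, the mean level per kb of Csf1 stood at percentile 97.1 in controls and 99.3 with LPS, while Csf3 went from 0.382 to 84.5 and Csf2 from 0.461 to 83.3. Csf2 and Csf3 passed the filter only through the LPS libraries, so their place near the bottom in controls was set by that filter and is not a result. Il34 moved from percentile 24.3 to 28.1.

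**Figure D4:**
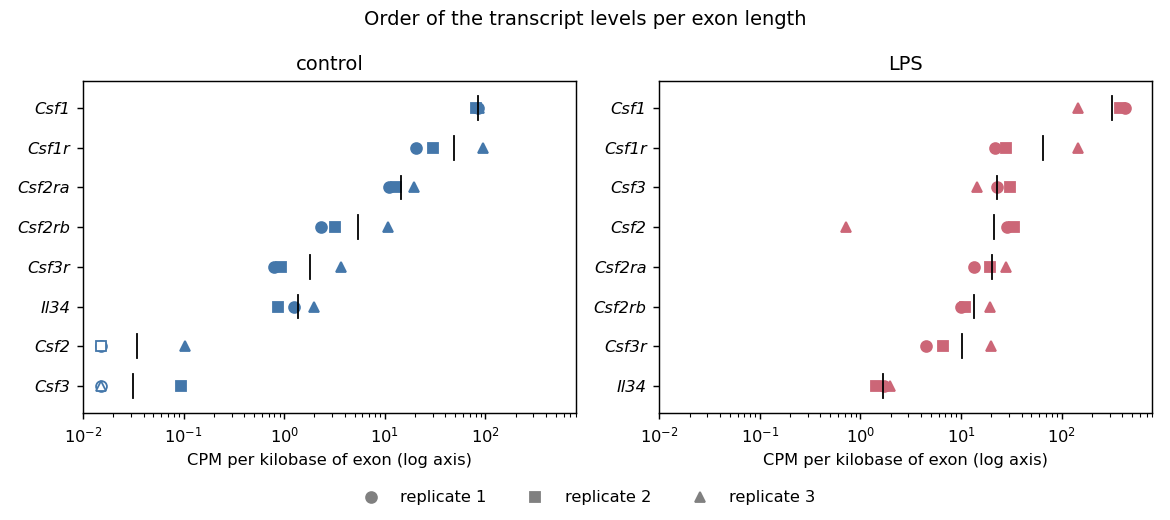
CPM per kilobase of exon of each member on a log axis, controls on the left and LPS on the right, ordered by the group mean (black line), with 1 symbol per library. Open symbols at the left edge stand for 0 counts. Csf1 leads both orders, and Csf2 and Csf3 move from the floor to the middle of the LPS order, apart from LPS replicate 3 for Csf2.

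A fixed set of 54 genes around these receptors, in 8 lists, was read beside the members. The filter kept 48, of which 14 rose and 1 fell, beside 9.09% and 6.71% of all genes, and their median log2 fold change was 0.25 against -0.02 over all genes. The replicate block gave 21 higher and 7 lower, where it called 15.4% and 14.9% of all genes. Without both replicate 3 libraries there were 22 and 11, where 22.6% and 20.4% of all genes were called, so the lower counts lie near the shares over all genes. The largest rises among them were those of Zc3h12a, Socs1, Jak2 and Socs3.

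Of 8 negative regulators 3 rose and 0 fell, with a median of 0.60. Socs1, a feedback inhibitor of Janus kinases, rose from 1.98 to 2.43 CPM in controls to 16.5 to 19.7 CPM with LPS (log2 fold change 3.09, SE 0.15, adjusted p = 0.0003). Its relative Socs3, which restrains signaling by the G-CSF receptor, rose by 2.45 (adjusted p = 0.00136), and Cish, a target of STAT5, by 0.96 (adjusted p = 0.0208). Socs1 and Socs3 had their highest level with LPS in replicate 3, where Csf1 had its lowest, and Cish had its lowest there too (13.2 CPM). Ptpn6 and Inpp5d, phosphatases that dampen receptor signaling in blood cells, gave 1.09 (adjusted p = 0.36, and 0.0243 with the replicate block) and -0.37 (adjusted p = 0.828).

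Of 5 regulators of mRNA decay 1 rose. Zc3h12a, which encodes Regnase-1, a nuclease that cuts cytokine mRNAs, went from 8.77 to 9.63 CPM in controls to 149, 161 and 92.6 CPM in LPS replicates 1, 2 and 3 (log2 fold change 3.87, SE 0.24, adjusted p = 0.000634). Zfp36, the gene of tristetraprolin, which binds AU-rich words, was at 43.4 to 55.7 CPM in controls and 45.1 to 58.3 CPM with LPS (0.05, adjusted p = 0.838). The LPS values of Zc3h12a had their lowest library in replicate 3, as did those of Csf1, Csf2 and Csf3.

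Of 13 receptor-proximal signaling genes 2 rose and 1 fell, with a median of 0.25, close to the 9.09% and 6.71% of all genes. Jak2, the kinase that the GM-CSF and G-CSF receptors use, went from 52.2, 52.3 and 59.6 CPM to 397, 422 and 214 CPM (log2 fold change 2.65, SE 0.28, adjusted p = 0.00371). Jak1 rose by 0.34 (adjusted p = 0.0477), and the PI3-kinase regulatory subunit gene Pik3r1 fell by 0.34 (adjusted p = 0.0278). Stat3 gave 0.34 (adjusted p = 0.0506, and 0.0229 with the replicate block), Stat5a 0.45 (0.0674, and 0.0369 with the block) and Stat5b 0.01 (adjusted p = 0.943). Jak2 thus had the largest called change of this list, and it too was lowest in the third LPS library.

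Of 4 genes for the release of membrane-bound CSF1 and of its receptor 3 rose, with a median of 0.76. Adam17, the sheddase known to cut both, rose by 1.07 (SE 0.15, adjusted p = 0.0104), from 114, 127 and 155 CPM to 251, 262 and 316 CPM. Rhbdf2, which encodes iRhom2, a partner that carries ADAM17 to the surface, rose by 1.61 (adjusted p = 0.0272), and the convertase gene Furin by 0.46 (adjusted p = 0.0458). Adam10, a related sheddase, gave -0.39 (adjusted p = 0.0504, and 0.0138 with the replicate block). Of 4 partners of CSF1R and IL-34, Sdc1, the gene of syndecan-1, which binds IL-34, rose by 1.42 (adjusted p = 0.0409). Trem2, a Mφ receptor that signals through TYROBP, gave 96.5, 144 and 292 CPM in controls and 9.24, 8.92 and 51.1 CPM with LPS (log2 fold change -2.94, adjusted p = 0.0715, and 0.00491 with the replicate block). Ptprz1, a phosphatase that serves IL-34 as a receptor, gave -0.91 (adjusted p = 0.168, and 0.0112 with the block), and Tyrobp gave -0.43 (0.706, and 0.0469 with the block). The block thus called 3 of the 4 lower and 1 higher, beside 14.9% and 15.4% of all genes.

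Of 10 transcription factor genes known to act on the receptor genes 9 passed the filter and 2 rose, with a median of -0.21. Cebpb, a factor of inflammatory activation, rose by 1.31 (adjusted p = 0.00711) and Ets2 by 1.13 (adjusted p = 0.0183). Spi1, which encodes PU.1, gave 0.77 (adjusted p = 0.538) and was highest in replicate 3 of both groups, with 92.9 CPM in the control and 192 CPM in the LPS library. Cebpa, needed for myeloid differentiation, gave -2.31 (adjusted p = 0.0532, and 0.00137 with the replicate block). Of the kin of the GM-CSF receptor, Il3ra rose by 0.69 (adjusted p = 0.0121), whereas Il3 and Il5ra had 0 counts in all libraries. Of 6 STAT5 and CSF2 response genes 4 passed the filter and 2 rose, namely Cish and the kinase gene Pim1 (log2 fold change 1.38, SE 0.09, adjusted p = 0.000878).

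**Figure D5:**
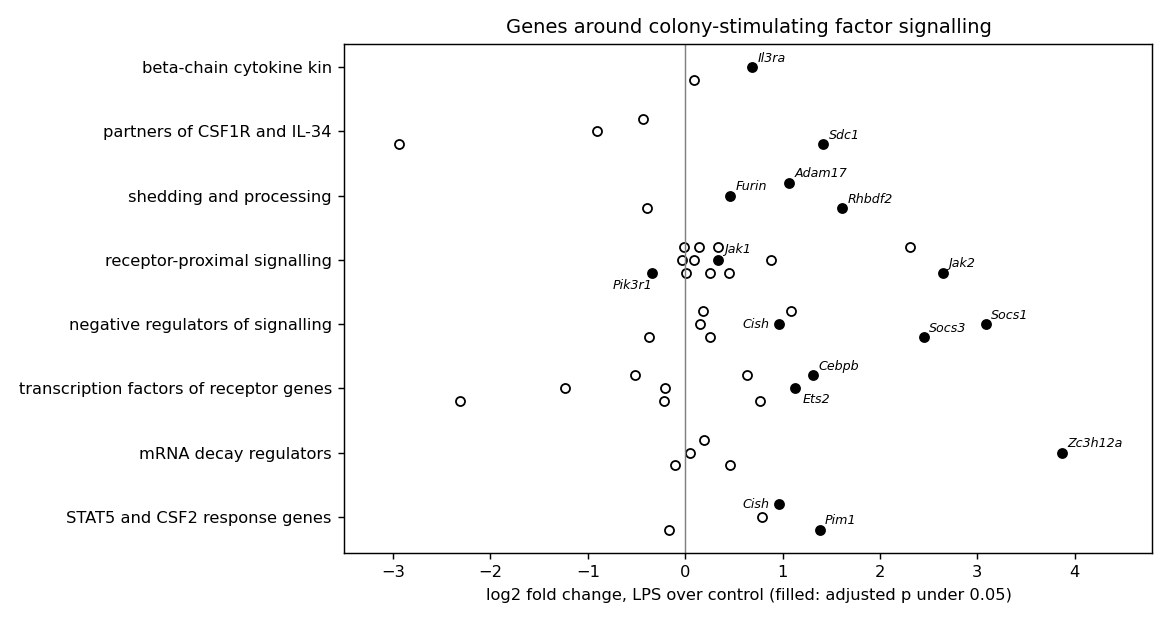
Fitted log2 fold change (edgeR, LPS over control) of the 48 genes around colony-stimulating factor signaling that passed the filter, by list. Filled and named points had an adjusted p under 0.05: 14 lie to the right of 0 and Pik3r1 to the left, and Cish stands in 2 lists.

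The genes whose log2 CPM followed a member most closely over the 6 libraries were found by Pearson correlation, as a description. For Csf1 they were Slc4a2, Map3k6, Pvrl2, H13 and Fosl2 (r from 0.9971 to 0.9987), with fitted log2 fold changes of 0.32 to 0.63, smaller than that of Csf1. For Csf3 they were Gvin1, Vta1, Mrpl1, Gm6548 and Serpina3f (r from 0.9979 to 0.9989). For Csf1r they were Selplg, Pik3cd, Dleu2, Psd4 and Nckap1l (r from 0.9968 upward), with fold changes between 0.15 and 0.29. The 6 points share their libraries, depth and groups.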

How the data were processed

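The deposited values were raw counts of reads per gene for each of 6 poly(A) libraries, and the authors did not normalize or pool them. Per the labels, the processing tools included cutadapt 1.15, Bowtie2 2.3.3.1, STAR 2.5.2b, SAMtools 1.5 and featureCounts 1.5.3, on GRCm38; the kit keeps strand, but the strand setting and the handling of reads with several alignments are not given in the sources used here. Of 46603 gene identifiers, 46091 were found in GENCODE M21, the source of coordinates, exon lengths and 3′ UTRs. Genes were filtered with filterByExpr (minimum count 10, minimum total 15), libraries were scaled by TMM, and LPS was compared with control with edgeR 4.0.16 in R 4.3.3 (quasi-likelihood F-test, group as the single term, two-sided), with Benjamini-Hochberg adjustment over 15226 genes and a call at an adjusted p under 0.05. The SE is the absolute log2 fold change divided by the square root of F. CPM are counts per 1e6 of the scaled library size, and the prior count of log2 CPM was 2. Totals of 18775316 to 23664312 counts set the precision, and floors of 3 counts cover counting error only.

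The labels number the replicates 1 to 3 in each group. Over 15226 genes, deviations from the group mean correlated at 0.513, 0.334 and 0.613 between the libraries of number 1, 2 and 3, all above 0.1. This is a hint of pairing from the data, and pairing by number entered only the alternative fit with the replicate block. The main fit was unpaired. Control 1 with LPS 2 (0.419) and control 2 with LPS 1 (0.323) correlated about as well, so this check hardly tells numbers 1 and 2 apart; the fit with the replicate block is given where it changed the call of a named gene. Other alternatives were relative log expression, upper-quartile and no scaling factors, no filter and a filter of 10 counts in every library, DESeq2 1.42.0, and leaving out each library; leaving out both replicate 3 libraries was chosen after seeing the data. The test was run on simulated data first. The members and lists were chosen with earlier results of these data known. Named genes are the 8 members, Csf2rb2, list genes that were called or serve as examples, and the 5 genes most correlated with Csf1, Csf3 and Csf1r. Some genes that entered the tests and list counts are not reported here by name.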

Additional observations from a re-analysis of the deposited data

How the results depend on the processing

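With 3 libraries a group, leaving out 1 moved the log2 fold change of Csf1 between 1.65 and 2.27 (adjusted p from 0.000204 to 0.130) and of Csf2 between 8.45 and 11.46 (0.00058 to 0.136), and both calls were lost without any single library other than LPS replicate 3. The ranges were 8.83 to 12.40 for Csf3, 0.07 to 0.70 for Il34, -0.97 to 1.38 for Csf1r, 0.17 to 0.76 for Csf2ra, 0.94 to 2.30 for Csf2rb and 1.63 to 3.60 for Csf3r. Csf1r turned negative (-0.97) without LPS replicate 3. Csf2rb and Csf3r passed the test without control replicate 3 (2.30 and 3.60) and without both replicate 3 libraries (1.95 and 2.71), and Csf3r passed with DESeq2 (2.53). With the replicate block Csf2ra (0.45), Csf2rb (1.56) and Csf3r (2.58) passed, and the block changed no other member's call. The cause of these changes was not tested.

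Members called higher, 3 in all, numbered 6 with the replicate block, 5 without both replicate 3 libraries, 1 with at least 10 counts in every library, a filter that removes Csf2 and Csf3 and so gives them no value, and 1 to 3 when a library was left out. Over all genes the higher calls moved too, from 1384 to 379 to 619 without control 1, control 2, LPS 1 or LPS 2, to 1174 without control 3 and to 1964 without LPS 3. Pathway genes called higher, 14 in all, numbered 22 without both replicate 3 libraries and 6 to 15 with a library left out. Those called lower, 1 in all, numbered 3 with upper-quartile factors, 6 with library size alone, 2 with at least 10 counts in every library, 4 with DESeq2, 7 with the replicate block, 11 without both replicate 3 libraries and 0 to 6 with a library left out. Set against Ptprc alone, Csf1r (-0.55) and Csf2ra (-0.30) turned in direction, and Csf2rb moved from 1.72 to 0.81. Depth limits Csf2 and Csf3 in controls and Csf2 in LPS replicate 3, which had 11 counts.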
